A study of Mus musculus with 45 samples.

Results

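Akt and mTOR form the signalling axis through which insulin and other growth factors set protein synthesis, autophagy and survival in neurons and glia. Akt kinases phosphorylate Tsc2, whose complex with Tsc1 holds the small GTPase Rheb inactive, and active Rheb switches on the kinase Mtor in its complex with Rptor (mTORC1). mTORC1 phosphorylates the S6 kinase and the 4E-binding proteins, whereas Mtor in its complex with Rictor (mTORC2) phosphorylates Akt in turn. The genes examined were the kinases Akt1 and Akt2, the kinase Mtor with its partners Rptor and Rictor, the inhibitory subunits Tsc1 and Tsc2, and the mTORC1 targets Rps6kb1 (S6 kinase 1) and Eif4ebp1 (4E-binding protein 1). They were chosen by name and found by their Ensembl identifiers, and all 9 were present among the 15897 genes of the deposited table.

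The study asked how a typical Western diet (TWD) changes the hippocampus of mice with and without Alzheimer-linked transgenes. Hippocampal poly(A) RNA came from 45 female C57Bl/6J mice, sequenced as single reads of 50 bases, with 1 library per mouse. Wild-type mice (AwTw), tau P301L mice (AwT+, human tau under the CaMKII promoter), APP/PS1 mice (A+Tw, both genes in a single insertion under the mouse prion protein promoter) and the cross of these lines (A+T+) were studied. Each genotype was split between standard chow (STD, 5% fat by weight and 0% cholesterol) and TWD (21% fat, 0.15% cholesterol and 35% sucrose), fed from 7 months of age until sacrifice at 13 months. Each group held 6 mice, all separate animals, except that 5 A+Tw mice and 4 A+T+ mice were on STD. The labels assign 20 mice to batch 0 (8 STD and 12 TWD) and 25 to batch 1 (13 STD and 12 TWD), and only 1 A+Tw/STD mouse was in batch 0.

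Values are log2-like, variance-stabilised read numbers from which the authors had removed batch differences, so a difference of 1 is close to 2-fold for well-measured genes and understates the change of genes with few reads. The depth per mouse is unknown, and error was taken from the spread between mice. The values are not per unit of gene length, and levels were therefore compared between groups and not between genes. Neuronal, astrocytic, microglial and oligodendroglial markers were present in every mouse, with a mean over the 9 neuronal markers between 12.29 and 13.15. Choroid plexus markers varied far more, with a mean over the 12 markers between 5.69 and 10.22, and 0 of these 12 passed the test for diet. Markers that passed it were 2 higher and 3 lower of 9 for neurons, 2 and 3 of 7 for astrocytes, 3 and 1 of 9 for microglia, 3 and 0 of 7 for oligodendrocytes, 3 and 1 of 5 for their precursors and 0 and 1 of 8 for vessels, and their part in the results was not tested. Of all genes, 16% passed the same test as higher and 13.4% as lower. App and Prnp, which read the APP/PS1 insertion, were higher in A+Tw and A+T+ than in AwTw on either diet (App by 0.79 to 1.00 and Prnp by 1.04 to 1.14 on the log2 scale), whereas Mapt differed from AwTw by at most 0.12 in the tau lines, and so gave no check of the tau insertion. In bulk RNA, a smaller share of a cell type and less RNA per cell cannot be told apart.

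Promoter sequences are shown for the 4 genes whose values differed between diets, from RefSeq on GRCm38.p6, from 250 bases before to 50 after the annotated start and read 5′ to 3′ on the gene's strand. Capitals mark matches on either strand to a FOXO motif (TGTTTAC), the E-box read by Tfeb (CACGTG) or the ETS motif read by Elf1 (CCGGAAG). Of 32851 mouse promoter windows of the same length, 3.65% hold the FOXO motif, 7.15% the E-box and 8.86% the ETS motif.
Tsc2 (chr17:24632578-24632877, minus strand): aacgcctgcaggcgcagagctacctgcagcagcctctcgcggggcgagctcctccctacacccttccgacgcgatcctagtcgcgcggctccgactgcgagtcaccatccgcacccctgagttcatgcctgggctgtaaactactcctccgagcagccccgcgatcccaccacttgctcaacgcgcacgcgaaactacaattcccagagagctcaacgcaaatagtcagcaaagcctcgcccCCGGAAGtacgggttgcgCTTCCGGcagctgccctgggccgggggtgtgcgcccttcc
Tsc1 (chr2:28640983-28641282, plus strand): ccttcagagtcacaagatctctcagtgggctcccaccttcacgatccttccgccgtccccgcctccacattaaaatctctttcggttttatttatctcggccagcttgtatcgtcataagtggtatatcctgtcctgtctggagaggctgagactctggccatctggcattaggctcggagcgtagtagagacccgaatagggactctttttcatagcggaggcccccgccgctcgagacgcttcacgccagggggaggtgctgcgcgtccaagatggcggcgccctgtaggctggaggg
Rictor (chr15:6708131-6708430, plus strand): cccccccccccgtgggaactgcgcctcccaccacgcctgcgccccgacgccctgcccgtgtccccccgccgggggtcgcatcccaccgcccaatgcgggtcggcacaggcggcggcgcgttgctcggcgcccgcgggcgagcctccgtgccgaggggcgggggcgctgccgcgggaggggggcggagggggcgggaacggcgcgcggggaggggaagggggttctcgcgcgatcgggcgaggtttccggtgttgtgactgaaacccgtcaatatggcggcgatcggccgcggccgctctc
Rps6kb1 (chr11:86544758-86545057, minus strand): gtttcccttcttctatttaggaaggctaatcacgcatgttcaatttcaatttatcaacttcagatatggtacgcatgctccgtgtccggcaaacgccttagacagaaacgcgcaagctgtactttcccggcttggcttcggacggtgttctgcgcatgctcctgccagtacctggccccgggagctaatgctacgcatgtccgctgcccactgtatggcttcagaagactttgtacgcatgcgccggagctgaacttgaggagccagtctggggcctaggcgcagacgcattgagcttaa
Tsc2 alone of these 4 held a match, with the ETS motif once on each strand, beginning 8 bases before the start and at base 10 after it. The windows differ in base composition, with 65.0% GC in Tsc2, 57.3% in Tsc1, 78.3% in Rictor and 53.3% in Rps6kb1. None of the 3 motifs was found in the windows of Tsc1, Rictor or Rps6kb1, which says only that these letters are not there. Of the other members, Mtor held 1 ETS match and 1 of 2 Akt1 windows held 1 FOXO match, and RefSeq promoters matched 8 of the 9 genes (Eif4ebp1 had no entry).

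Diet was tested first. TWD went with more Tsc2 mRNA and with less Tsc1, Rictor and Rps6kb1 mRNA in the hippocampus, over all genotypes, whereas the differences of Akt1, Akt2, Mtor, Rptor and Eif4ebp1 did not pass the test. Tsc2 was higher by 0.40 ± 0.090 (log2 difference ± SE, 1.32-fold), Rictor lower by a difference of -0.42 ± 0.146 (0.747-fold), Rps6kb1 by -0.26 ± 0.0898 (0.835-fold) and Tsc1 by -0.18 ± 0.0517 (0.881-fold). The test was limma over all 15897 genes with genotype and batch in the fit (21 STD and 24 TWD mice, two-sided, Benjamini-Hochberg over all genes, threshold 0.05). By it, 4 of the 9 genes were called, against 29.4% of all genes (16% higher and 13.4% lower), and the median log2 difference was 0.03 over the 9 genes and -0.00138 over all genes. With 9 genes, a count of 4 is not far from that background, and it is the single genes that are described here. All 4 calls were absent in batch 0 alone and when each mouse's score on the first component of the residual variation was a covariate, as detailed further on.

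**Figure D1:**
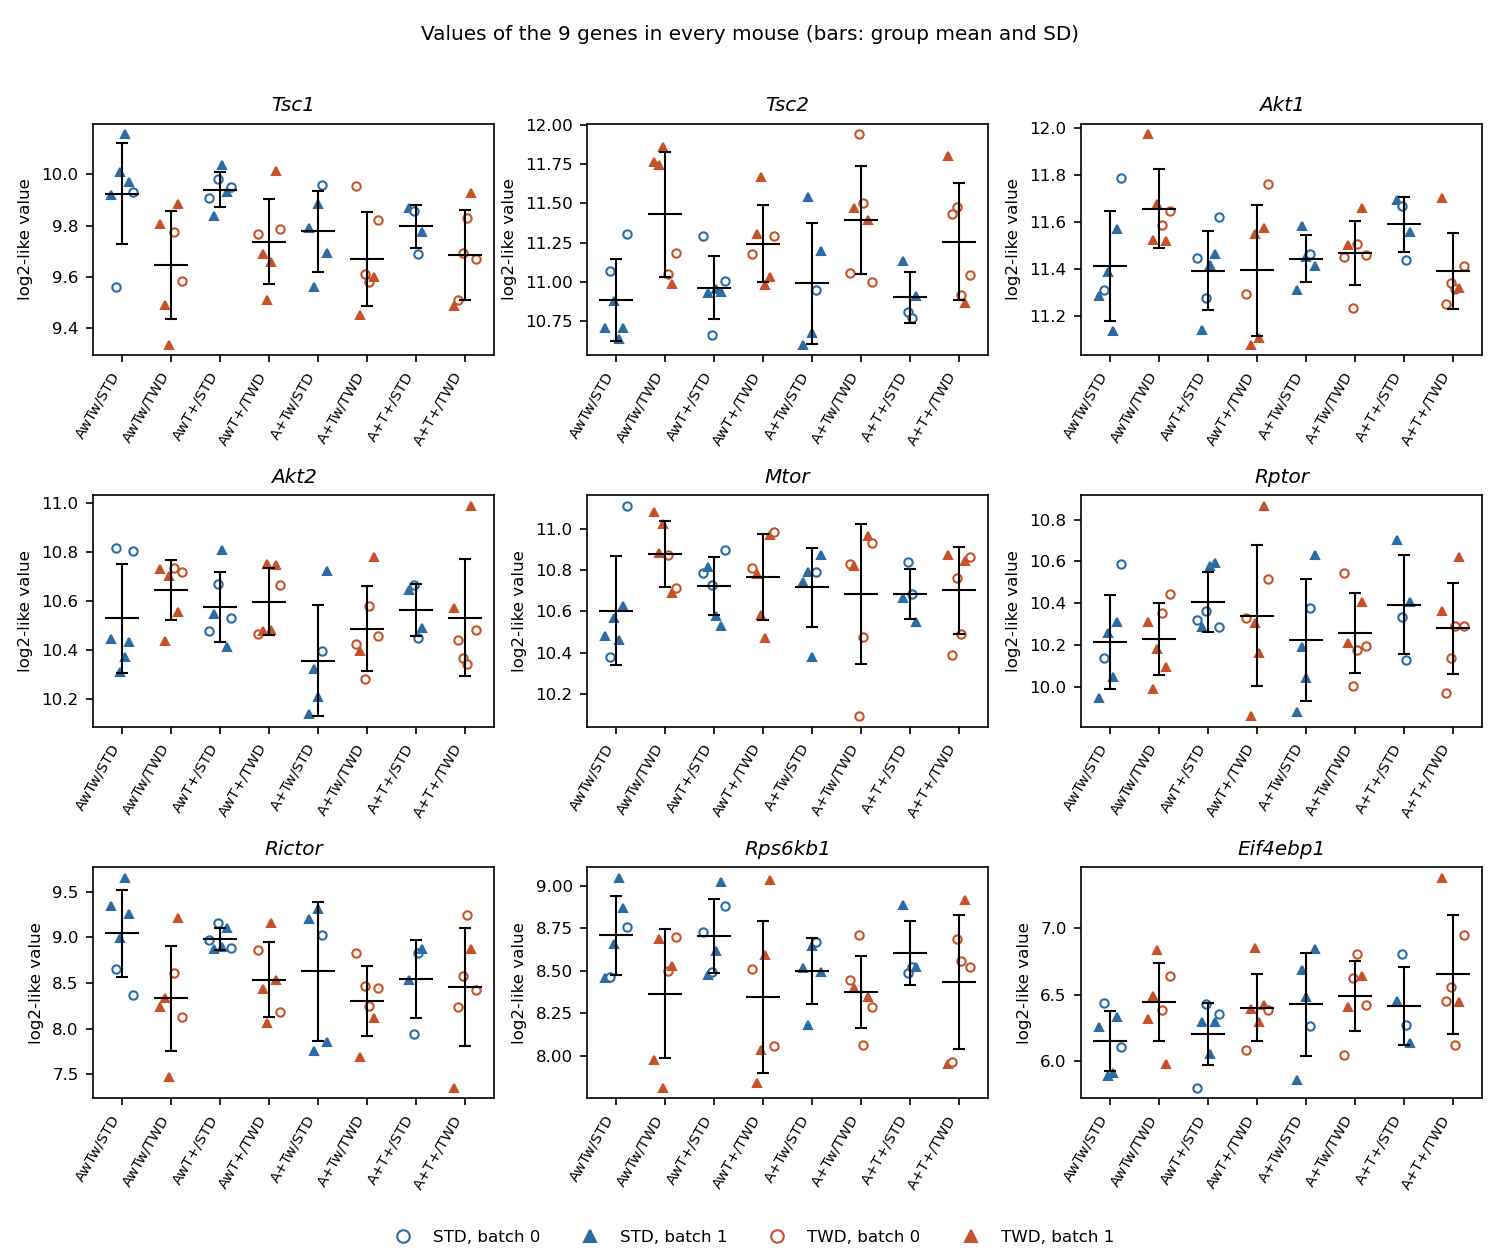
Log2-like values (vertical axes, a separate range per gene) of the 9 genes in each of the 45 mice, by genotype and diet (horizontal axes), with open circles for batch 0, filled triangles for batch 1, blue for STD, orange for TWD, and black bars for group mean and SD. Tsc2 means were higher and Tsc1, Rictor and Rps6kb1 means lower on TWD in each of the 4 genotypes, with overlapping groups.

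Tsc2 encodes tuberin, the subunit of the TSC complex with the GTPase-activating domain and a substrate of Akt (ENSMUSG00000002496, chr17:24595816-24632630, minus strand, GRCm38). Over all genotypes it ranged from 10.60 to 11.54 (median 10.93) in 21 STD mice and from 10.87 to 11.94 (median 11.30) in 24 TWD mice. In TWD mice, 22 of 24 values lay above the STD median and 6 above the highest STD value, and the diets overlapped. The adjusted p was 0.0157 (limma).

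By genotype, Tsc2 ran from 10.63 over a median of 10.80 to 11.31 in AwTw/STD and from 10.99 over 11.47 to 11.86 in AwTw/TWD. In AwT+ the STD mice ran from 10.66 over 10.95 to 11.29 and the TWD mice from 10.98 over 11.24 to 11.67. In each of these genotypes the lowest TWD mouse stood above the STD median but below the highest STD mouse. The 5 A+Tw/STD mice had 10.60, 11.54, 10.68, 10.95 and 11.19, and the 6 A+Tw/TWD mice ran from 11.00 over 11.43 to 11.94. The 4 A+T+/STD mice had 11.13, 10.81, 10.77 and 10.91, and the 6 A+T+/TWD mice ran from 10.87 over 11.24 to 11.80. Diets overlapped in all 4 genotypes, and the TWD mice above every STD mouse of their genotype numbered 3 (AwTw), 2 (AwT+), 1 (A+Tw) and 3 (A+T+).

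The 3′ end of Tsc2 overlaps that of Pkd1 on the other strand by 693 bases. The library kit keeps strand, but whether the counting used it is not given in the sources used here, so reads from the shared stretch may be uncertain. Pkd1 itself differed by 0.02 ± 0.0813 (limma, adjusted p = 0.893).

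Tsc1 encodes hamartin, which stabilises Tsc2 (ENSMUSG00000026812, chr2:28641228-28691167, plus strand). It ranged from 9.56 to 10.16 (median 9.91) on STD and from 9.33 to 10.01 (median 9.68) on TWD (limma, adjusted p = 0.0159). Of 24 TWD mice, 21 lay below the STD median and 6 below the lowest STD mouse.

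Within AwTw, Tsc1 ran from 9.56 over 9.95 to 10.16 on STD and from 9.33 over 9.68 to 9.89 on TWD. In AwT+ it ran from 9.84 over 9.94 to 10.04 on STD and from 9.51 over 9.73 to 10.01 on TWD, and 5 of 6 TWD mice were below every STD mouse. A+Tw/STD mice had 9.79, 9.56, 9.89, 9.96 and 9.69, and the TWD mice ran from 9.45 over 9.60 to 9.96. A+T+/STD mice had 9.87, 9.86, 9.69 and 9.77, and the TWD mice ran from 9.48 over 9.68 to 9.93. Diets overlapped in each genotype, and the spread among AwT+/STD mice (SD 0.0678, n = 6) was the narrowest of the 8 groups.

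Tsc1 and Tsc2 form 1 complex, and their difference within each mouse was also compared. It combines the separate values of both genes in the same mice and is not evidence beyond them. Tsc1 minus Tsc2 ranged from -1.98 to -0.48 (median -1.01) on STD and from -2.53 to -0.94 (median -1.61) on TWD. TWD lowered this difference by -0.59 ± 0.130 (SE; permutation of diet labels within genotype and batch, p = 6e-05, adjusted over 3 such differences 0.00018). The shift was -0.40 in the 20 mice of batch 0 (permutation, adjusted p = 0.0720) and -0.77 in the 25 mice of batch 1 (permutation, adjusted p = 0.0032), so that the direction was the same in both and the call was not. It was -0.52 (permutation, adjusted p = 9e-05) once the part of each mouse's profile that followed GC content and length of the transcripts had been subtracted.

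Akt1, the widely expressed kinase of the family, and Akt2, the form best known for insulin action, showed little difference between diets. Akt1 (ENSMUSG00000001729, chr12:112653821-112674884, minus strand) ranged from 11.14 to 11.79 (median 11.44) on STD and from 11.08 to 11.97 (median 11.50) on TWD. Its difference was 0.03, with a 95% interval from -0.09 to 0.15 (limma, adjusted p = 0.731), and the direction turned under 5 of 14 alternatives. Akt2 (ENSMUSG00000004056, chr7:27591552-27640826, plus strand) ranged from 10.14 to 10.82 (median 10.48) on STD and from 10.28 to 10.99 (median 10.52) on TWD, a difference of 0.06 with an interval from -0.05 to 0.17 (limma, adjusted p = 0.373). In both genes 15 of 24 TWD mice lay above the STD median. Akt1 minus Akt2 within a mouse differed by -0.03 ± 0.0611 between diets (permutation, adjusted p = 0.586).

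Mtor, the kinase shared by both complexes (ENSMUSG00000028991, chr4:148448611-148557683, plus strand), ranged from 10.38 to 11.11 (median 10.69) on STD and from 10.09 to 11.08 (median 10.82) on TWD. Its difference was 0.08, with an interval from -0.05 to 0.22 (limma, adjusted p = 0.336). Mtor lay above the STD median in 18 of 24 TWD mice. The batches went different ways, with -0.04 in batch 0 (adjusted p = 0.935) and 0.23 in batch 1 (adjusted p = 0.0194), a difference between batches that was not tested.

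Rptor encodes raptor, which brings substrates to mTORC1 (ENSMUSG00000025583, chr11:119602905-119899576, plus strand). It ranged from 9.88 to 10.70 (median 10.31) on STD and from 9.86 to 10.87 (median 10.29) on TWD. The difference of -0.03 had an interval from -0.17 to 0.11 (limma, adjusted p = 0.761), the largest p of the 9 genes.

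Rictor encodes the defining subunit of mTORC2 (ENSMUSG00000050310, chr15:6708379-6800401, plus strand) and varied more between mice than any other of the 9 genes (pooled SD within groups 0.503). It ranged from 7.76 to 9.66 (median 8.90) on STD and from 7.35 to 9.25 (median 8.43) on TWD (limma, adjusted p = 0.0304). Below the STD median were 21 of 24 TWD mice, and 3 were below the lowest STD mouse.

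In AwTw, Rictor ran from 8.37 over 9.12 to 9.66 on STD and from 7.47 over 8.29 to 9.22 on TWD. In AwT+ it ran from 8.87 over 8.94 to 9.16 on STD and from 8.07 over 8.48 to 9.15 on TWD, with 5 of 6 TWD mice below every STD mouse. A+Tw/STD mice split into values of 9.20, 9.31 and 9.03 and values of 7.76 and 7.85, and the TWD mice ran from 7.69 over 8.34 to 8.83. A+T+/STD mice had 8.54, 7.94, 8.83 and 8.87, and the TWD mice ran from 7.35 over 8.50 to 9.25, so that both the lowest and the highest A+T+ mice were on TWD. The call was lost when any of 5 mice was left out (AwTw/TWD replicate 3, AwT+/TWD replicate 3, A+T+/TWD replicate 1, A+Tw/STD replicate 3 or AwTw/STD replicate 4), with adjusted p from 0.0507 to 0.0594 (limma).

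Rptor minus Rictor within a mouse, which sets the mTORC1 partner against the mTORC2 partner, ranged from 0.39 to 2.78 (median 1.40) on STD and from 0.87 to 3.01 (median 1.75) on TWD. It was 0.39 ± 0.180 higher on TWD (permutation, p = 0.0323, adjusted 0.0485), a call that was lost in 25 of 45 repeats that left out 1 mouse (adjusted p up to 0.0907). The shift was 0.19 in batch 0 (permutation, adjusted p = 0.549) and 0.65 in batch 1 (permutation, adjusted p = 0.0379), and 0.08 (permutation, adjusted p = 0.361) after removal of the length and GC trend.

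Rps6kb1 encodes S6 kinase 1, which mTORC1 activates (ENSMUSG00000020516, chr11:86498871-86544805, minus strand). It ranged from 8.18 to 9.05 (median 8.61) on STD and from 7.81 to 9.04 (median 8.47) on TWD (limma, adjusted p = 0.0301). Of 24 TWD mice, 18 lay below the STD median and 8 below the lowest STD mouse, and the SD was 0.345 on TWD and 0.214 on STD.

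AwTw mice ran from 8.46 over 8.71 to 9.05 on STD and from 7.81 over 8.51 to 8.70 on TWD for Rps6kb1. AwT+ mice ran from 8.47 over 8.67 to 9.02 on STD and from 7.84 over 8.28 to 9.04 on TWD. Below every STD mouse were 2 AwTw and 3 AwT+ mice on TWD, and 1 AwT+ mouse on TWD was above every STD mouse. A+Tw/STD mice had 8.51, 8.18, 8.64, 8.67 and 8.49, and the TWD mice ran from 8.06 over 8.37 to 8.71. A+T+/STD mice had 8.89, 8.49, 8.52 and 8.52, and the TWD mice ran from 7.95 over 8.54 to 8.92, with medians that nearly coincide. Leaving out AwTw/TWD replicate 1, AwTw/TWD replicate 3, AwT+/TWD replicate 3 or A+T+/TWD replicate 1 ended the call (limma, adjusted p from 0.0508 to 0.0589). Rps6kb1 shares 155 bases with Rnft1 on the other strand, which differed by -0.27 ± 0.116 (limma, adjusted p = 0.0665).

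Eif4ebp1, the 4E-binding protein whose phosphorylation by mTORC1 frees the cap-binding factor Eif4e (ENSMUSG00000031490, chr8:27260329-27276674, plus strand), ranged from 5.80 to 6.84 (median 6.30) on STD and from 5.98 to 7.38 (median 6.43) on TWD. It lay above the STD median in 19 of 24 TWD mice, and the difference was 0.20 with an interval from 0.02 to 0.38. It did not pass the threshold after adjustment (limma, unadjusted p = 0.0275, adjusted p = 0.0752), and passed it when any of 5 mice was left out (adjusted p from 0.0416 to 0.0472) or with the choroid plexus markers as a covariate (adjusted p = 0.0399).

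Within genotypes, the diet difference of Tsc2, Tsc1, Rictor, Rps6kb1 and Eif4ebp1 had the same sign in all 4, and that of Tsc2 in AwTw passed the test. Tsc2 was 0.55 ± 0.176 higher on TWD in AwTw (limma, adjusted p = 0.0498), and the differences were 0.42 for A+Tw, 0.36 for A+T+ and 0.27 for AwT+. Rictor differed most in AwTw (-0.71), followed by AwT+ (-0.44), A+Tw (-0.36) and A+T+ (-0.10), none of which passed the test. Tsc1 ran from -0.28 in AwTw to -0.11 in A+T+, and Rps6kb1 from -0.35 in AwT+ to -0.13 in A+Tw. Akt1 ranged from 0.24 in AwTw to -0.20 in A+T+, and Akt2, Mtor and Rptor also differed in sign between genotypes.

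**Figure D2:**
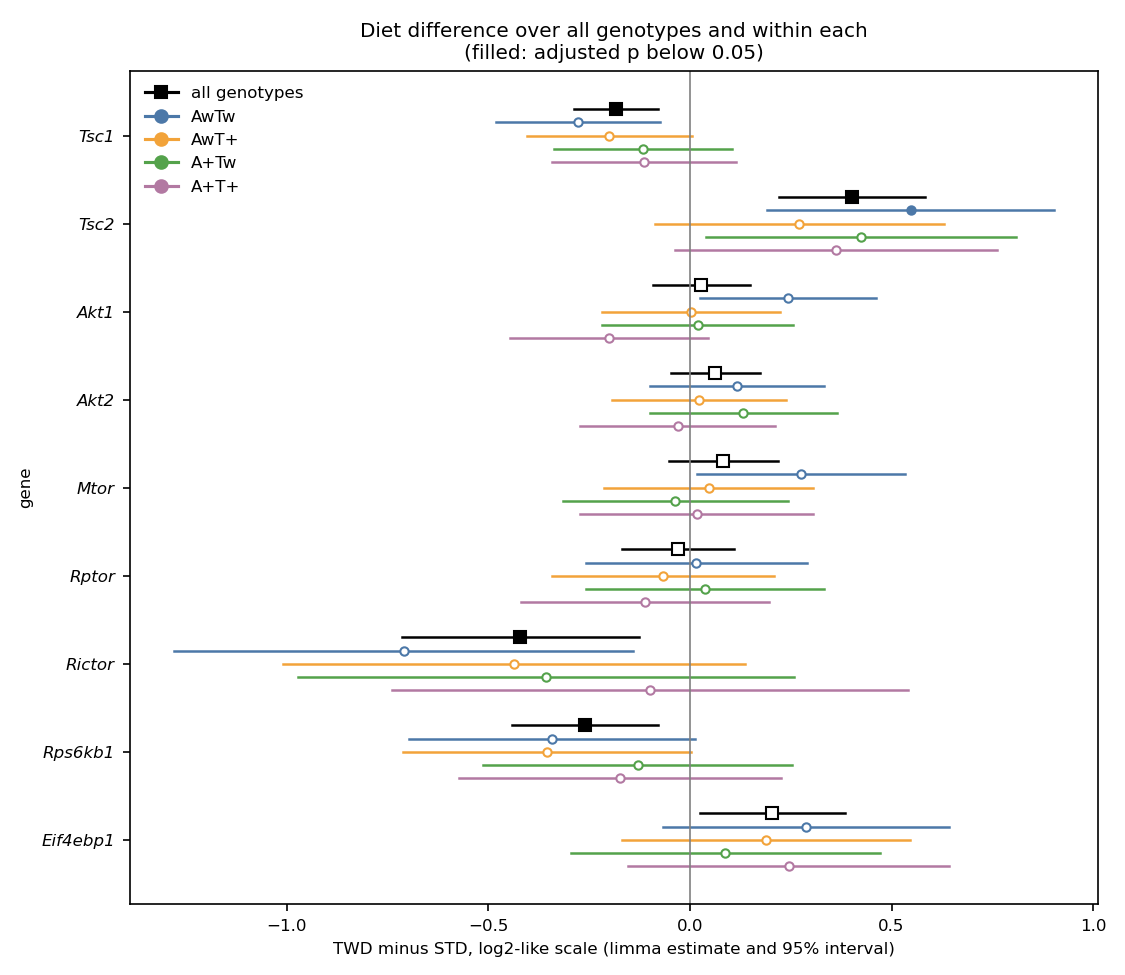
TWD minus STD on the log2-like scale (horizontal axis) for the 9 genes (vertical axis) over all genotypes (black squares) and within each (coloured circles), with 95% intervals, and filled symbols for an adjusted p below 0.05. Filled are Tsc1, Tsc2, Rictor and Rps6kb1 over all genotypes and Tsc2 in AwTw.

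By limma, 1 of the 9 genes was called for diet in AwTw, against 9.35% of all genes (6.01% higher and 3.34% lower), and 5 of 9 had an unadjusted p below 0.05 there, as did 40.2% of all genes. In each of the 3 transgenic genotypes, 0 of 9 were called, against 0% of all genes in each, and 1 gene, Tsc2 in A+Tw, had an unadjusted p below 0.05. The Tsc2 call in AwTw lay at the threshold and held in 13 of 45 fits that left out 1 mouse. The Tsc2 difference in AwTw was -0.07 ± 0.271 within batch 0 and 0.86 ± 0.223 within batch 1 (limma, adjusted p = 1 and 0.0430), and the difference between the batches was not tested. The tests of the difference between genotypes called 0 of 9 genes and 0% of all genes, with adjusted p between 0.980 and 0.987 for the joint test over the 3 transgenic genotypes. Akt1 had the smallest unadjusted p, 0.0094 for A+T+ against AwTw (a difference between diet effects of -0.44 ± 0.163, limma, adjusted p = 0.560). The half-width of the 95% interval for such a difference reached 0.857 for Rictor, and for none of the 4 called genes was it below the overall diet difference, so a genotype dependence of that size was not detectable in these groups.

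The genotypes were also compared within each diet, against AwTw on the same diet, and 0 of 9 genes were called in any of the 6 comparisons (limma). Of all genes, 0% were called in AwT+ on either diet, 0.925% in A+Tw on STD (0.918% higher and 0.00629% lower) and 1.32% in A+T+ on STD (1.22% higher and 0.101% lower). On TWD it was 0.824% in A+Tw (0.818% higher and 0.00629% lower) and 0.73% in A+T+ (0.692% higher and 0.0377% lower). Unadjusted p below 0.05 was found for Akt1 alone, on TWD, at -0.26 in AwT+ (adjusted p = 0.865) and -0.27 in A+T+ (adjusted p = 0.506). These comparisons share the AwTw/TWD mice, in which Akt1 was highest of the 8 groups (11.65 ± 0.168, SD, n = 6).

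Across the 8 groups, means of 1 gene spanned 0.192 for Rptor to 0.745 for Rictor. For Tsc1, Rictor and Rps6kb1 the 4 TWD means were the 4 lowest, and for Tsc2 they were the 4 highest. Tsc2 means ran from AwTw/STD (10.89 ± 0.260, SD, n = 6) to AwTw/TWD (11.43 ± 0.399, n = 6), and Tsc1 was lowest in AwTw/TWD (9.65 ± 0.212, n = 6) and highest in AwT+/STD (9.94 ± 0.0678, n = 6). The highest group mean was AwTw/TWD for Akt1 (11.65), Akt2 (10.65) and Mtor (10.88), AwT+/STD for Rptor (10.40) and A+T+/TWD for Eif4ebp1 (6.65), and the lowest was 11.39, 10.36, 10.60, 10.21 and 6.16 in that order of genes. For each of the 9 genes, 0 of 7 steps between neighbours in this order exceeded the pooled SD within groups. That SD is of single mice and not of group means, so the comparison cannot tell whether neighbouring groups differed.

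After removal of group and batch means, the 9 genes varied together in part. Over 45 mice, Pearson's r of the 36 pairs ran from -0.72 to 0.64, with a median of 0.10. Rictor and Tsc1 varied together (r = 0.64, Spearman's rho 0.62), and both opposed Tsc2 (Rictor r = -0.72, rho -0.69; Tsc1 r = -0.63, rho -0.61). Mtor went with Akt1 (r = 0.57) and Rptor with Akt2 (r = 0.63) and Akt1 (r = 0.58). These correlations are descriptions, since the points share library, depth and base composition, and those named were closer to 0 with the trend removed. After removal of the length and GC trend, r was -0.37 for Tsc1 and Tsc2, -0.29 for Rictor and Tsc2, 0.47 for Rictor and Tsc1 and 0.00373 for Akt1 and Mtor, while Rptor kept 0.50 with Akt2 and 0.41 with Akt1. With the residual component described next removed, r was 0.30 for Rictor and Tsc2, 0.16 for Rictor and Tsc1 and -0.24 for Tsc1 and Tsc2. It then was 0.47 for Akt1 and Mtor, and Rptor kept 0.62 with Akt2 and 0.57 with Akt1. Mgrn1 (r = 0.84) and Pacs1 (0.83) were among the genes most like Mtor, and Zfp710 (0.83), Synpo (0.80) and C2cd2l (0.80) most like Akt1. For Eif4ebp1 these were Lmna (0.78) and Pold4 (0.77), the latter with the same values as ENSMUSG00000097508.

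The first component of the residual variation over all genes holds 41.3% of it. Each mouse's score on this component came from values that still held the diet and group differences. Such a score can itself carry part of the diet difference. Scores on this component followed Rictor closely (r = -0.95 over 45 mice) and also Tsc2 (0.84), Tsc1 (-0.73), Eif4ebp1 (0.73) and Rps6kb1 (-0.57), and less Rptor (0.15). With this score as a covariate, 0 of 9 genes and 0% of all genes were called (limma), and 1 gene, Tsc2, had an unadjusted p below 0.05, at 0.18 ± 0.0574. Rictor then differed by 0.000778. In batch 0 alone 0 of 9 genes and 0% of all genes were called, 0 of 9 had an unadjusted p below 0.05, and the differences of the 4 genes kept their sign, with Tsc2 at 0.26, Tsc1 at -0.13, Rictor at -0.19 and Rps6kb1 at -0.19. In batch 1 alone 4 of 9 were called, against 40.9% of all genes (20.3% higher and 20.6% lower), namely Tsc2 (0.52), Rictor (-0.68), Tsc1 (-0.25) and Mtor (0.23), while Rps6kb1 stood at -0.32 (adjusted p = 0.0655).

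Base composition moved with the diet difference as well. Over 15695 genes, the diet difference correlated with transcript GC content (Spearman's rho 0.62) and with transcript length (rho -0.47), which is a description across genes that are not independent. Rps6kb1 (39.2% GC) and Rictor (42.5% GC, longest transcript 9312 bases) lie at the end with lower values on TWD. Akt1 (59.7%), Rptor (56.5%), Akt2 (55.2%), Tsc2 (54.7%) and Mtor (54.2%) have more GC. Between them lie Eif4ebp1 (48.2%), with a diet difference of 0.20, and Tsc1 (51.7%), with -0.18. The order of the 9 genes by GC content was therefore not that of their differences. When the trend over length and GC content was taken from each mouse, 2 of 9 genes were called, against 13.4% of all genes (8.81% higher and 4.59% lower). Tsc2 was then at 0.41 ± 0.0916 (limma, adjusted p = 0.0206) and Tsc1 at -0.10 ± 0.0327 (limma, adjusted p = 0.0344). Rictor fell short at -0.11 ± 0.0617 (adjusted p = 0.237), and Rps6kb1 turned to 0.06 ± 0.101 (adjusted p = 0.746). Whether base composition, the residual component or RNA quality plays a part in these differences was not tested.

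**Figure D3:**
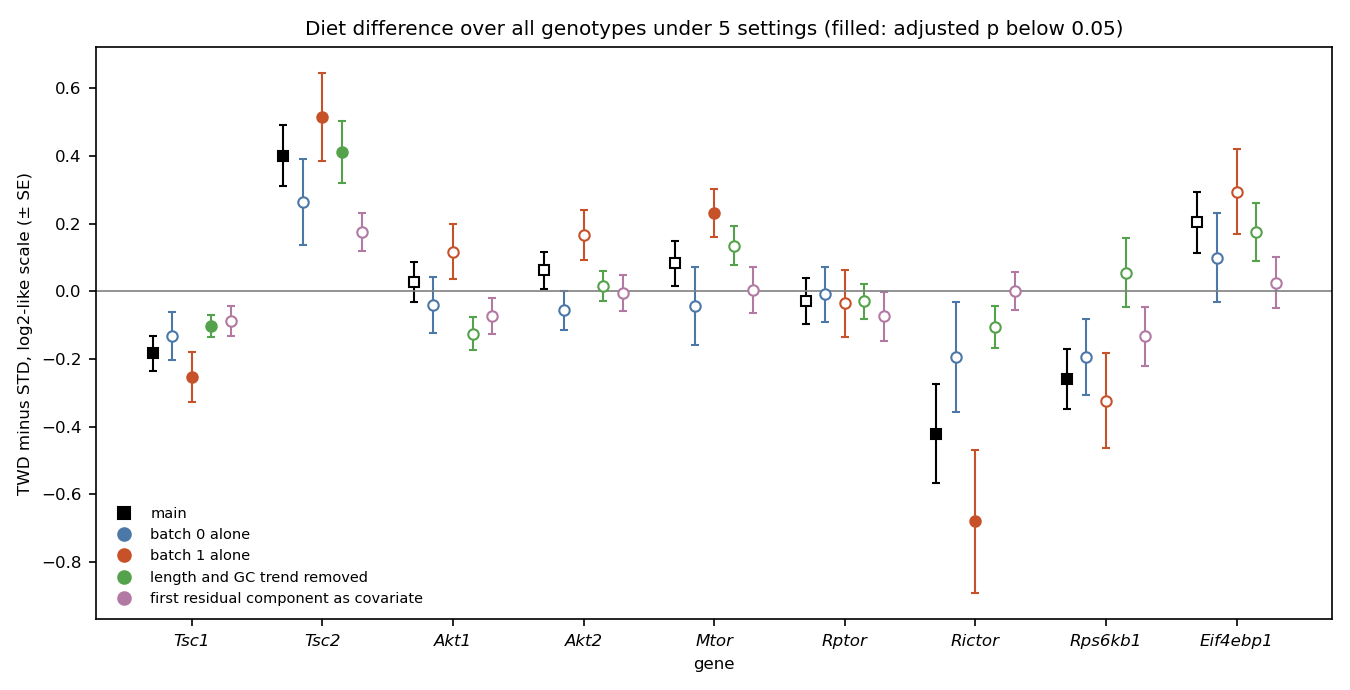
TWD minus STD over all genotypes on the log2-like scale (vertical axis, ± SE) for the 9 genes (horizontal axis) under 5 settings named in the key, with filled symbols for an adjusted p below 0.05. Tsc2 and Tsc1 are filled in the black (main), orange (batch 1) and green (trend removed) symbols, and no gene is filled in batch 0 or with the residual component as a covariate.

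**Figure D4:**
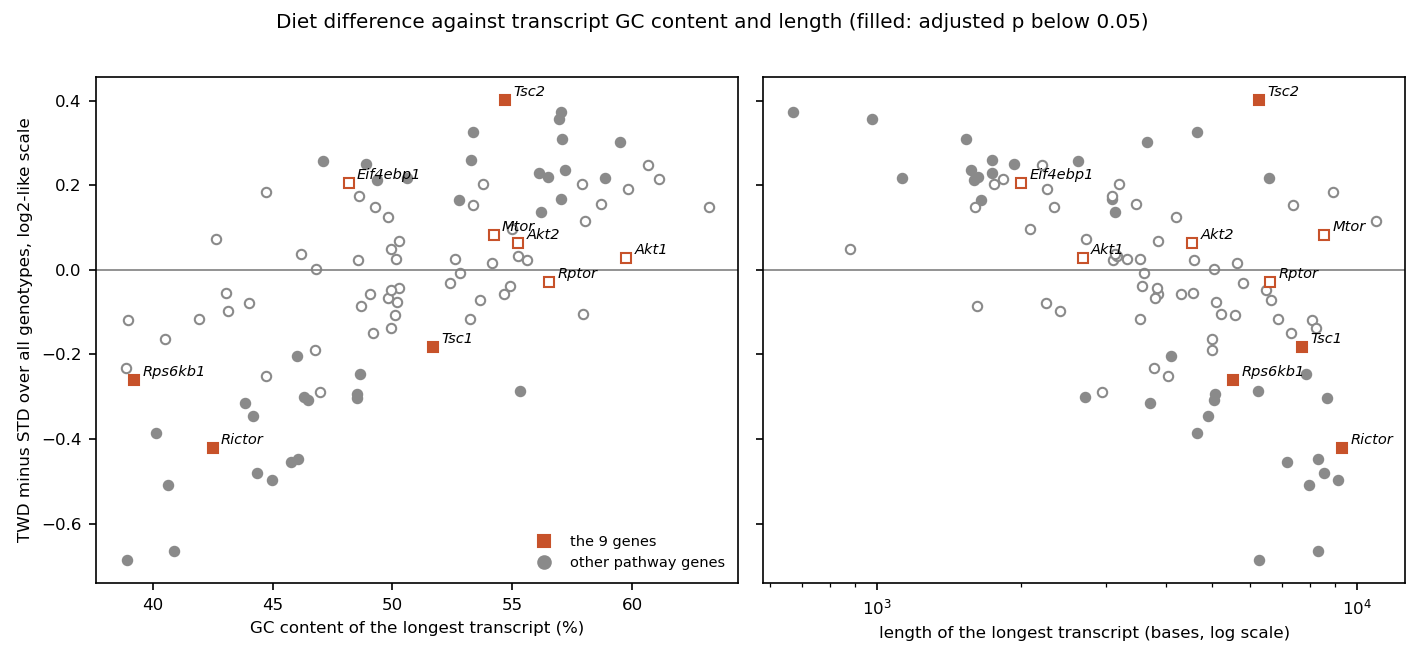
TWD minus STD over all genotypes on the log2-like scale (vertical axis) against GC content in percent (left) and length in bases on a log axis (right) of the longest transcript, for the 9 genes (orange squares) and 85 other pathway genes (grey circles), filled for an adjusted p below 0.05. Rictor and Rps6kb1 lie with the GC-poor genes below 0, and Tsc2 has the highest difference of the genes plotted.

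The rest of the pathway was taken from a list of 86 further genes in 8 role groups, of which 85 were measured (Trib3 was not found). For diet over all genotypes 34 of the 85 were called, 17 higher and 17 lower on TWD, against 29.4% of all genes, and the median log2 difference was -0.00668. By limma, 0 of 85 were called in batch 0 alone (0% of all genes), 46 in batch 1 alone (40.9% of all genes) and 16 with the length and GC trend removed (13.4% of all genes). All 16 had the sign of the fit without that removal, and 11 of them were called in both.

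**Figure D5:**
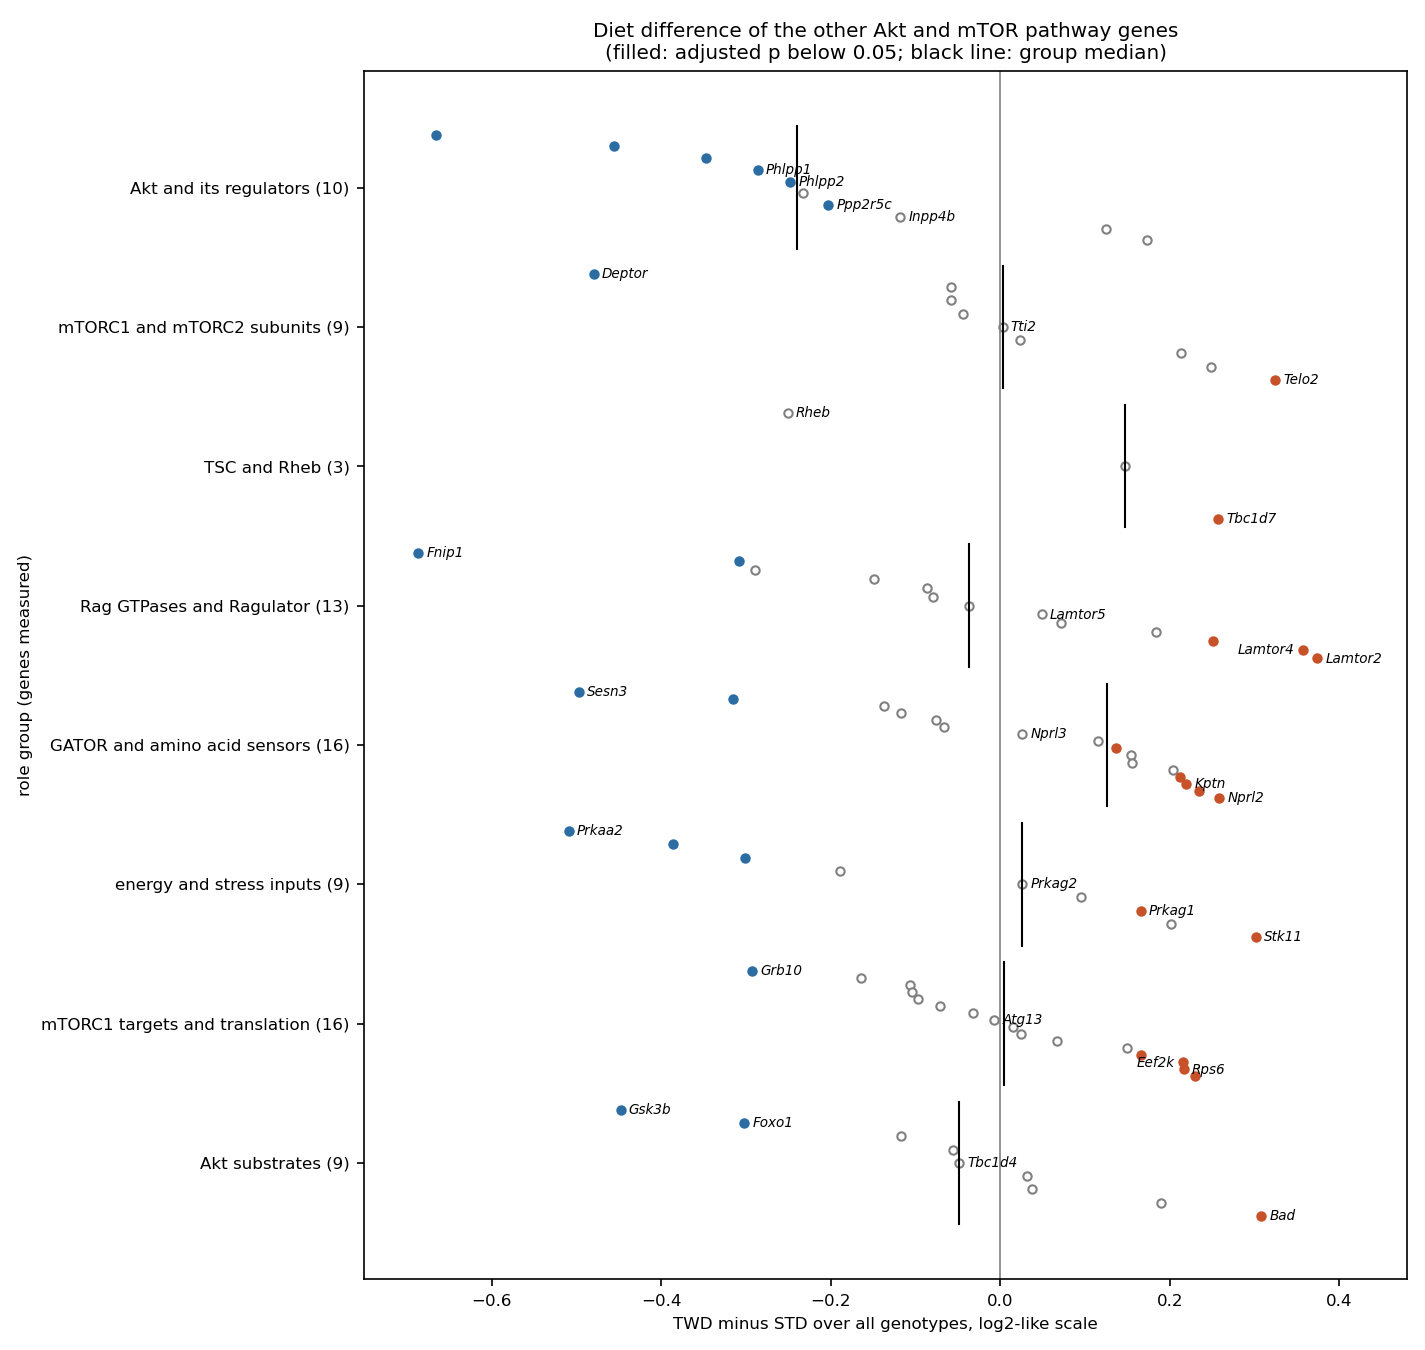
TWD minus STD over all genotypes on the log2-like scale (horizontal axis) for 85 further pathway genes by role group (vertical axis, with the number of genes), filled and coloured for an adjusted p below 0.05, with black lines for group medians and names for genes chosen by smallest or largest p. Among Akt and its regulators the 6 filled genes all lie below 0.

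Akt and its regulators gave 6 calls of 10 genes, all lower on TWD, with a median of -0.24. Counts in this and the following role groups stand against 16% of all genes called higher and 13.4% called lower. They included the phosphatases of Akt Phlpp1 (-0.29 ± 0.0854, adjusted p = 0.0182) and Phlpp2 (-0.25 ± 0.0743, adjusted p = 0.0185) and the PP2A subunit Ppp2r5c (-0.20 ± 0.0665, adjusted p = 0.0244), as well as the kinase Pdpk1 (-0.46), named here after its value was seen. Activators and inhibitors of the pathway were thus both among the genes that fell. The lipid phosphatase Inpp4b was at -0.12 (adjusted p = 0.515). With the length and GC trend removed, 1 of the 10 was called, Phlpp1, against 13.4% of all genes (4.59% lower).

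Of 9 further subunits and assembly factors of the mTOR complexes, 2 were called. The mTOR inhibitor Deptor was lower (-0.48 ± 0.153, adjusted p = 0.0223), the chaperone factor Telo2 was higher (0.32 ± 0.0995, adjusted p = 0.0197), and Tti2 stood at 0.00290 (adjusted p = 0.960). The third TSC subunit Tbc1d7 was higher (0.26 ± 0.0948, adjusted p = 0.0384), while Rheb stood at -0.25 (adjusted p = 0.129). With the length and GC trend removed, Telo2 was still called (0.30, limma, adjusted p = 0.0359). Tti2 was called only after that removal (0.13, limma, adjusted p = 0.0280). Deptor (-0.21, limma, adjusted p = 0.118) and Tbc1d7 (0.29, limma, adjusted p = 0.0517) then were not.

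The Rag GTPases and the Ragulator, which bring mTORC1 to the lysosome, gave 3 higher and 2 lower of 13. The Ragulator subunits Lamtor2 (0.37 ± 0.0969, adjusted p = 0.0157) and Lamtor4 (0.36 ± 0.0948, adjusted p = 0.0157) were higher and the folliculin partner Fnip1 was lower (-0.69 ± 0.205, adjusted p = 0.0182), and these 3 were also called with the trend removed, at 0.15, 0.14 and -0.35. Lamtor5 stood at 0.05 (adjusted p = 0.589). The amino acid sensing group gave 5 higher and 2 lower of 16, with the GATOR1 subunit Nprl2 (0.26 ± 0.0672, adjusted p = 0.0157) and the KICSTOR subunit Kptn (0.22 ± 0.0576, adjusted p = 0.0157) higher, the sestrin Sesn3 lower (-0.50 ± 0.148, adjusted p = 0.0180), and Nprl3 at 0.03 (adjusted p = 0.679). With the trend removed, Nprl2 (0.12, limma, adjusted p = 0.0376) and Sesn3 (-0.24, limma, adjusted p = 0.0365) were still called. Kptn then stood at 0.0343 (limma, adjusted p = 0.616).

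Energy and stress inputs gave 5 calls of 9. The AMPK kinase Stk11 (0.30 ± 0.0759, adjusted p = 0.0157) and the AMPK subunit Prkag1 (0.17 ± 0.0483, adjusted p = 0.0172) were higher, the catalytic AMPK subunit Prkaa2 was lower (-0.51 ± 0.143, adjusted p = 0.0159), and Prkag2 stood at 0.03 (adjusted p = 0.711). With the length and GC trend removed, Stk11 was still higher (0.19, limma, adjusted p = 0.0206) and Prkag1 stood at 0.0268 (adjusted p = 0.589). Prkaa2 then was lower by a difference of -0.17 (adjusted p = 0.0417). Of 16 mTORC1 targets and translation genes 4 were higher and 1 lower, with the adaptor Grb10 lower (-0.29 ± 0.0892, adjusted p = 0.0192), the elongation factor kinase Eef2k (0.22 ± 0.0699, adjusted p = 0.0236) and ribosomal protein Rps6 (0.22 ± 0.0705, adjusted p = 0.0240) higher, and Atg13 at -0.00668 (adjusted p = 0.922). Of 9 Akt substrates, Bad was higher (0.31 ± 0.0931, adjusted p = 0.0189), the kinase Gsk3b (-0.45 ± 0.126, adjusted p = 0.0159) and the transcription factor Foxo1 (-0.30 ± 0.109, adjusted p = 0.0346) were lower, and Tbc1d4 stood at -0.05 (adjusted p = 0.703). After removal of that trend, 0 of the 9 Akt substrates and 3 of the 16 mTORC1 targets and translation genes were called, against 13.4% of all genes. Rps6 then stood at -0.00712 (limma, adjusted p = 0.957).

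The called pathway genes differed in transcript length and composition. The 17 that were higher on TWD had a median GC content of 56.2% and a median longest transcript of 1736 bases, the 17 that were lower had 45.8% and 6255 bases, and the 51 others had 50.1% and 3809 bases. Tsc2, the higher of the 4 called members, has a longest transcript of 6266 bases and so did not follow the length pattern. Its GC content of 54.7% lay near the median of the genes that were higher.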

How the data were processed

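The authors trimmed reads with Trimmomatic 0.38, removed ribosomal and mitochondrial reads with Bowtie2 2.2.3 (mm10), quantified transcripts with kallisto 0.44.0 and summed them per gene. They kept genes with a mean count above 10, and the deposited values are log2-like, being DESeq2 1.22.2 variance-stabilised counts with batch removed by limma 3.38.3. Depth per mouse is not known from such values. Every gene has equal means in both batches, so batch was removed without holding the groups, whose split between batches was uneven.

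Genotype, diet and batch came from the labels. Identifiers were matched to GENCODE M21 (GRCm38) for symbols, coordinates, length and GC content (longest transcript). All genes were fitted with limma 3.58.1 in R 4.3.3 (empirical Bayes, mean trend) with batch as a covariate, additively for the overall diet effect and as 8 groups for the rest. Partner differences used 100000 permutations of diet within genotype and batch in Python 3.11.15 (two-sided). The residual component score was each mouse's projection on the leading principal component of what the 8-group fit left unexplained. The values projected kept their diet and group differences, so the score is not free of diet. The trend over length and GC was a spline of 5 degrees of freedom fitted in each mouse. The methods were tested on simulated data. All 9 genes were named, and of the further pathway genes at most 3 per role group with the smallest p among those past the threshold and the 1 with the largest p. A few genes of these lists are not reported here by name. The genes and lists were chosen with earlier results of these data known. Also tried were each of the batches by itself, a fit without batch, the label prefix, the component score or the choroid plexus markers as covariates, quantile normalization, the trend removed, a filter at the 25th percentile, copied genes counted once, no mean trend, other thresholds, only the groups compared, and each mouse left out.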

Additional observations from a re-analysis of the deposited data

Results flagged for a closer look

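In 6 of 72 combinations of a gene and a group, 1 mouse stood apart from the others by Dixon's criterion at 95%, where chance alone would give about 3.6. Rps6kb1 was 8.89 in A+T+/STD replicate 1, against 8.52 in the nearest and 8.49 in the lowest of the other 3 mice. Mtor was 11.11 in AwTw/STD replicate 6 (next highest 10.63) and 10.38 in A+Tw/STD replicate 3 (next lowest 10.74). Akt1 was 11.97 in AwTw/TWD replicate 1 (next highest 11.68) and 11.70 in A+T+/TWD replicate 1 (next highest 11.41), and Akt2 was 10.99 in A+T+/TWD replicate 5 (next highest 10.57). Leaving out any of these mice changed no call for Akt1, Akt2 or Mtor over all genotypes, but 3 of them bear on other calls (limma). Without A+T+/TWD replicate 1, Rictor (adjusted p = 0.0522) and Rps6kb1 (adjusted p = 0.0508) were no longer called, nor was Rictor without A+Tw/STD replicate 3 (adjusted p = 0.0519) or Rps6kb1 without AwTw/TWD replicate 1 (adjusted p = 0.0524).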

How the results depend on the processing

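Over all genotypes, 4 of 9, and 34 of the 85 further pathway genes, were called. These counts were 0 and 0 at an adjusted p below 0.01, in batch 0 alone and with the residual component score as a covariate. Of all genes, these settings called 1, 0 and 0 in that order. The counts were 2 and 16 with the length and GC trend removed. That removal also changed the calls over all genes from 2546 higher and 2132 lower to 1400 and 729. With both (chosen after seeing the data) they were 0 and 0, and 0 of all genes were called. Leaving out single mice gave 2 to 5 of the 9 and 24 to 42 of the 85, with 2 of the 9 left without AwTw/TWD replicate 3, AwT+/TWD replicate 3 or A+T+/TWD replicate 1, and between 2768 and 5917 calls over all genes. Within genotypes, the single call became 4 at an adjusted p below 0.1 and 3 in batch 1 alone. It became 2 without a batch covariate, with choroid plexus markers as a covariate or among genes above the 25th percentile. All these calls were in AwTw, where 1487 of all genes were called in the main fit. These settings called 5563, 3982, 2490 and 2765 of all genes there, and 2853 of the 11922 above the percentile. The count was 0 in 8 further alternatives, in each of which at most 1 of all genes was called. With the trend removed and the score together, 0 of 9 and 0 of all genes were called in AwTw. Leaving out single mice gave 0 to 5. The counts for genotype and for diet by genotype stayed at 0 under all alternatives run.

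Signs turned for Akt1 in batch 0 (-0.0397), with the component score (-0.0738), quantile normalization (-0.0271), the trend removed (-0.13) and both (-0.0635), for Akt2 in batch 0 (-0.0566) and with the score (-0.00541), and for Mtor in batch 0 (-0.0438). They also turned for Rictor with the score (0.000778) and with both (0.0120), and for Rps6kb1 with the trend removed (0.0553). Akt1 minus Akt2 was 0.0170 in batch 0 and -0.14 with the trend removed (adjusted p = 0.0459, permutation). The call of Rptor minus Rictor was lost in batch 0 (0.19, adjusted p = 0.549), with choroid plexus markers as a covariate (0.38, 0.0593), with the trend removed (0.0753, 0.361) and in 25 of 45 permutation tests without a single mouse (0.34 to 0.45). That of Tsc1 minus Tsc2 was lost in batch 0 (-0.40). The partner differences were not tested with the component score as a covariate, so whether their calls would hold there is not known. The causes of these changes were not tested. No paired analysis was possible because all mice were separate animals, each on a single diet. Depth per mouse is unknown, so its effect on precision could not be given.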
